A study of Mus musculus with 27 samples.

Results

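A set of 9 genes that mark the mesenchymal state was followed through the reprogramming of mouse fibroblasts. They are 7 transcription factors (Snai1, Snai2, Zeb1, Zeb2, Twist1, Twist2 and Prrx1) and 2 of the products by which a mesenchymal cell is recognised (Cdh2 and Vim). The 9 genes were picked by name from the 20156 genes of the expression tables. For each gene the expression in FPKM (sequenced fragments per kilobase of transcript, scaled to library depth) was taken from the RNA-seq libraries. The reads of nucleosomes called within 1000 bp of its transcription start site (TSS) were taken from libraries of histone H3, H3K4me3, H3K27me3 and H3K9me3.

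The cells are mouse embryonic fibroblasts (MEFs), pre-induced pluripotent stem cells (pre-iPSCs, a stable partly reprogrammed state) and induced pluripotent stem cells (iPSCs). MEFs came from embryos of embryonic day 13.5, hemizygous for an Oct4-GFP transgene and carrying a Rosa26 allele from crosses of males of CBA/CaJ and C57BL/6J background to females of another strain. They were grown in fibroblast medium for at most 3 passages. Pre-iPSCs and iPSCs were made from such MEFs with the Yamanaka factors, delivered by retrovirus, and were grown for 6 passages in medium with leukemia inhibitory factor. The study used 2 stable pre-iPSC clones and the iPSCs that correspond to them. The clone of each library is not given in the sources used here. Pre-iPSCs and iPSCs were both expanded on feeder layers of MEFs, which the labels describe for iPSCs as treated with mitomycin C. Each cell type has 2 libraries of RNA, H3, H3K4me3 and H3K27me3 and 1 library of H3K9me3.

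Epithelial and mesenchymal cells convert into each other in development, and fibroblasts pass through a mesenchymal-to-epithelial transition on the way to pluripotency. Snai1, Snai2, Zeb1 and Zeb2 are zinc finger repressors that bind E-box sequences in the promoters of epithelial genes such as Cdh1 (E-cadherin). Twist1 and Twist2 are basic helix-loop-helix proteins of the mesoderm, and Prrx1 is a homeobox protein of limb and facial mesenchyme. H3K4me3 marks active promoters, whereas H3K27me3 is laid down by the Polycomb repressive complex and H3K9me3 by heterochromatin enzymes.

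The E-box bound by the Snai and Zeb proteins was searched for as CACCTG and as CAGGTG, which are the same site read on either strand. Of the 20156 genes, 16.4% held at least 1 such hexamer in the 250 bases before the RefSeq start, and 1.95% held at least 2. Of the members, Zeb1 held 2, Snai1 held 1 and the other 7 held none, while Cdh1 held 3. Cdh1 and Snai1 are shown because the former is the textbook target of these repressors and the latter is one of the repressors. They are read from NCBIM37 (mm9) and end 1 base before the most upstream annotated start. The positions are chr8:109127001-109127250 on the plus strand for Cdh1 and chr2:167363445-167363694 on the plus strand for Snai1. Capitals mark the hexamers, and the first pair in Cdh1 lies end to end.

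Cdh1: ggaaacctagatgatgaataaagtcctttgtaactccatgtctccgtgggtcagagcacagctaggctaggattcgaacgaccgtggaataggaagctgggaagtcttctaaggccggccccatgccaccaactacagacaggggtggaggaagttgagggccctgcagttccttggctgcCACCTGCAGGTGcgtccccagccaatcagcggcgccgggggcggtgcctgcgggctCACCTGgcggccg
Snai1: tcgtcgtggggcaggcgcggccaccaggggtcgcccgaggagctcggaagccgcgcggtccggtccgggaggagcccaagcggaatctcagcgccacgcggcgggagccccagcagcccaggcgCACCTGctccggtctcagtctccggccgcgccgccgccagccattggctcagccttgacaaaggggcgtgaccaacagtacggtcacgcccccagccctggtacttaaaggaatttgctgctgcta

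The 4 genes at which H3K27me3 rose (described further on) are shown with each CpG in capitals, because they differ in CpG content. Twist1 lies at chr12:34642286-34642535 on the plus strand, Twist2 at chr1:93697788-93698037 on the plus strand, Prrx1 at chr1:165243842-165244091 on the minus strand and Snai2 at chr16:14705695-14705944 on the plus strand.

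Twist1: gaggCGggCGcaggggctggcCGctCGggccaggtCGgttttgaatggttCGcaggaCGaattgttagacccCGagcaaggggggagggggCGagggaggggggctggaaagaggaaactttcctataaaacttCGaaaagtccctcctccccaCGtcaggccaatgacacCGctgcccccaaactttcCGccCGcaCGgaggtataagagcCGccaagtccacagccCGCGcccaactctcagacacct
Twist2: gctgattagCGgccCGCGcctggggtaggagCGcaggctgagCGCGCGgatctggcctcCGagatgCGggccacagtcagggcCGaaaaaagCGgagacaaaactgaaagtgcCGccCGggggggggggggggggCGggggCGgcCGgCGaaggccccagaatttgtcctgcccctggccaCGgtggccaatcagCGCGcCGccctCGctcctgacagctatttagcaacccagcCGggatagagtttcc
Prrx1: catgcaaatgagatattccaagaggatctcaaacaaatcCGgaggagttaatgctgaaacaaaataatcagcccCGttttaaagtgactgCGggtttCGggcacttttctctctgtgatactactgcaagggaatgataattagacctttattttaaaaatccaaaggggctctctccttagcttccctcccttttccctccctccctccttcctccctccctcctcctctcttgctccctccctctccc
Snai2: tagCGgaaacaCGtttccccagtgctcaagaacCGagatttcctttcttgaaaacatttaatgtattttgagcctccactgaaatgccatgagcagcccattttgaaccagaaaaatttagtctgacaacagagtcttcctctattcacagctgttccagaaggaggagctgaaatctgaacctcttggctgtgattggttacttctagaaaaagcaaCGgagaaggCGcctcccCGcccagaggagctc

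These 250 bases held 18 CpG in Twist1 and 23 in Twist2, against 4 in Prrx1 and 6 in Snai2. Over 500 bp either side of the TSS, Twist1 had 114 CpG, more than 95.6% of all genes, and Twist2 had 89, more than 85.9%. Prrx1 had 26, more than 35.5%, and Snai2 had 51, more than 53.4%, beside a median of 47 over all genes. None of these 4 windows of 250 bases held the E-box hexamer, which says only that these letters are not in them.

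The labels of the cell types were checked against marker genes. Of 10 pluripotency markers, none reached 1 FPKM in MEFs, 5 did in both pre-iPSC libraries and all 10 did in both iPSC libraries. Those 5 were Pou5f1 (378 and 3184 FPKM), Sox2 (272 and 171), Tdgf1 (228 and 333), Utf1 (23.2 and 1.67) and Dppa5a (1.70 and 5.01). Pou5f1 (Oct4) and Sox2 are also Yamanaka factors, and the part of transgene RNA in their values was not tested. Nanog, Zfp42, Esrrb, Dppa3 and Dppa4 were at most 0.519 FPKM in pre-iPSCs. The 10 fibroblast markers summed to 4259 and 4112 FPKM in MEFs, then 309 and 94.9 FPKM in pre-iPSCs and then 236 and 280 FPKM in iPSCs. Dcn and Lum, 2 proteoglycans of fibroblasts, were not lower in iPSCs (Dcn 30.2 and 40.5 FPKM, Lum 5.88 and 8.59 FPKM) than in MEFs (Dcn 9.0 and 36.6 FPKM, Lum 0.348 and 5.84 FPKM). Markers of 4 other cell types had their highest sums in pre-iPSCs. Keratinocyte markers summed to 143 and 90.6 FPKM there, against 6.94 and 0.923 in MEFs, with 16.3 and 21 in iPSCs. Neural markers summed to 374 and 265 FPKM in pre-iPSCs, against 36.9 and 116 in MEFs, with 126 and 83.6 in iPSCs. Haematopoietic markers reached 94.8 and endothelial markers 14.9 FPKM in pre-iPSCs, and skeletal muscle markers at most 25.5 FPKM in any library. Single genes made up most of these 4 sums in pre-iPSCs, except the endothelial sum of replicate 2, where Esam (4.74 FPKM) was above Tek. Sfn was at 128 and 84.0 FPKM of the keratinocyte sum, Stmn2 at 301 and 263 of the neural sum, Laptm5 at 40.4 and 83.3 of the haematopoietic sum and Tek at 12.7 and 3.94 of the endothelial sum. Of the same lists, Krt5, Ptprc, Dcx and Vwf were near or at 0 FPKM in every library. They reached at most 1.06, 0.240, 0.0106 and 0.267 FPKM. Other genes of these lists were not near 0. In pre-iPSCs Krt14 was at 13.5 and 6.28 FPKM, Tubb3 at 67.8 and 1.23 and Sox1 at 2.69 and 1.15. In MEFs Krt14 was at 0.0638 and 0.0492 FPKM, Tubb3 at 22.9 and 25.1 and Sox1 at most at 0.0243. Reads in the called nucleosomes numbered 12007350 to 15222040 in the libraries of modified histones and 67362868 to 108211816 in those of H3. The depth of the RNA-seq libraries is unknown, since the tables give FPKM only. Replicate 1 of H3 in pre-iPSCs and, less so, replicate 1 of H3 in iPSCs stood apart from the other H3 libraries at promoters. They had 1704 and 1071 reads over the 9 promoters against 239 to 288 in the other 4. In RPKM (defined further on) the mean of the 9 was 0.729 and 0.476 against 0.144 to 0.169. The shift was not limited to the 9, since the mean over all promoters was 0.646 and 0.432 against 0.223 to 0.251.

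The first comparison asked what happened to the mesenchymal program when MEFs became pre-iPSCs. All 9 genes were higher in both MEF libraries than in any pre-iPSC or iPSC library. The share of all genes that meet this rule is not given here. In pre-iPSCs 7 of the 9 fell, by a median of 2.78 on the log2(FPKM + 1) scale over the 9, and none rose. Over all 12401 genes tested 9.0% were called lower, and the median of all genes was -0.04. The test was limma on log2(FPKM + 1), called at an adjusted p under 0.05 and a change of at least 1. All 9 members passed the filter of a mean of at least 0.5 FPKM. In these bulk libraries, fewer cells that express a gene and less RNA per cell cannot be told apart.

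Among the zinc finger factors, Snai1 was at 52.6 and 41.9 FPKM in the MEF libraries, 10.9 and 3.09 in the pre-iPSC libraries and 10.2 and 12.7 in the iPSC libraries. Snai2 (Slug) was at 49.5 and 28.7 FPKM in MEFs, against 4.03 and 1.89 in pre-iPSCs, with 1.67 and 1.81 in iPSCs. Both lay far below MEFs in every pre-iPSC and iPSC library. In iPSCs both Snai1 libraries were above both Snai2 libraries in FPKM, a scale that accounts for transcript length. From MEFs to pre-iPSCs Snai1 changed by -2.78 ± 0.48 (log2, SE, n = 2 and 2, limma adjusted p = 0.00938) and Snai2 by -3.35 ± 0.40 (limma adjusted p = 0.00278).

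The Zeb genes were the lowest of the 7 factors in both MEF libraries. Zeb2 was at 11.7 and 4.22 FPKM in MEFs, then 0.922 and 0.309 in pre-iPSCs and then 0.773 and 1.28 in iPSCs, and its fall in pre-iPSCs was -2.36 ± 0.45 (log2, SE, limma adjusted p = 0.0133). Zeb1 was at 18.2 and 18.8 FPKM in the MEF libraries, 8.65 and 9.45 in the pre-iPSC libraries and 4.36 and 4.12 in the iPSC libraries. It was the gene with the closest replicates, and its groups did not overlap at either step. Its difference in pre-iPSCs was -0.96 ± 0.35 (log2, SE, limma adjusted p = 0.108), which did not pass, nor did its difference between pre-iPSCs and iPSCs.

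Twist1 was at 27.4 and 44.9 FPKM in MEFs, against 3.78 and 1.92 in pre-iPSCs, with 2.72 and 3.31 in iPSCs. Twist2 was at 60.2 and 93.3 FPKM in MEFs, then 8.71 and 2.95 in pre-iPSCs and then 5.10 and 6.74 in iPSCs. Prrx1, the highest of the 7 factors in MEFs, was at 85.2 and 105.5 FPKM there, against 9.48 and 3.12 in pre-iPSCs, with 3.30 and 6.93 in iPSCs. For all 3 the pre-iPSC and iPSC libraries overlapped. The falls from MEFs to pre-iPSCs were -3.27 ± 0.44 for Twist1 (log2, SE, limma adjusted p = 0.00398), -3.62 ± 0.51 for Twist2 (0.00462) and -3.86 ± 0.54 for Prrx1 (0.00457), on the same scale and test.

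The 2 products were highest in MEFs as well. Vim, the intermediate filament of mesenchymal cells, was at 3302 and 5248 FPKM in the MEF libraries, 845 and 754 in the pre-iPSC libraries and 215 and 308 in the iPSC libraries. Cdh2 (N-cadherin) was at 56.2 and 18.9 FPKM in MEFs, against 12.0 and 4.34 in pre-iPSCs, with 1.01 and 2.38 in iPSCs. Neither overlapped between any pair of cell types. Even in iPSCs Vim stood above 98.5% and 99.2% of all genes. In pre-iPSCs Vim fell by 2.38 ± 0.60 (log2, SE, limma adjusted p = 0.0351), and the difference of Cdh2 was -2.02 ± 0.58 (limma adjusted p = 0.0553), which did not pass. Between pre-iPSCs and iPSCs neither product passed.

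**Figure D1:**
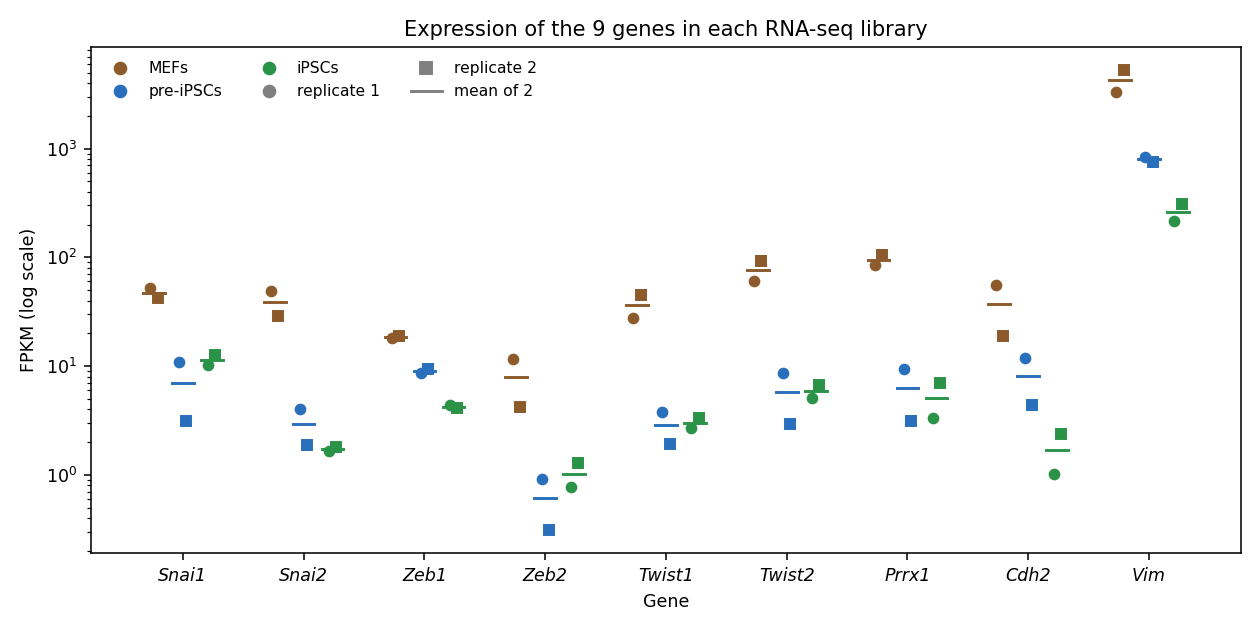
FPKM of the 9 genes (log axis) in each RNA-seq library, with circles for replicate 1, squares for replicate 2 and lines for the mean of 2. Both MEF libraries lie above all others for every gene, and the means of Zeb1, Cdh2, Vim, Snai2 and Prrx1 lie lower in iPSCs than in pre-iPSCs, by differences that did not pass the test.

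Between the pre-iPSC libraries, replicate 1 was above replicate 2 for 8 of the 9 genes. The ratio was 3.52 for Snai1, 3.03 for Prrx1, 2.99 for Zeb2, 2.95 for Twist2, 2.75 for Cdh2, 2.13 for Snai2 and 1.97 for Twist1, beside 3.26 for the sum of the fibroblast markers. It was 1.12 for Vim and 0.915 for Zeb1. The part that remaining or feeder fibroblasts have in the low levels outside MEFs was not tested. With 1 RNA-seq library left out at a time, 5 to 8 of the 9 genes were called lower in pre-iPSCs. With no filter on low values limma called 0 of the 9 and 0 of the 20156 genes, although 8 of the 9 and 4116 of all genes had an unadjusted p under 0.05.

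The second comparison asked what changed between pre-iPSCs and iPSCs. None of the 9 genes passed in either direction (limma), against 8.62% of all genes tested, and 4.71% called lower. The largest differences were those of Cdh2 at -1.67 ± 0.58 (log2, SE, limma adjusted p = 0.141), Vim at -1.63 ± 0.60 (0.163) and Zeb1 at -0.94 ± 0.35 (0.168), and these 3 were the members at an unadjusted p under 0.05. The 95% intervals of the other 6 spanned 0. For Twist1 the interval reached from -0.93 to 1.13 and for Twist2 from -1.04 to 1.34, so neither a rise nor a fall of nearly 2-fold lies outside them. Snai1 differed by 0.83 (95% interval -0.30 to 1.95), with -0.09 between the replicates 1 and 1.75 between the replicates 2. Without either MEF replicate 1 or MEF replicate 2, Cdh2 and Vim passed, and 2 of the 9 were called.

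Across the whole course, from MEFs to iPSCs, all 9 genes fell, with 15.5% of all genes tested called lower. The median change of the 9 was -3.47, an 11.1-fold fall on the scale of FPKM + 1, against -0.14 over all genes. The falls ran from -1.89 for Zeb1 (SE 0.35, limma adjusted p = 0.00852) to -4.04 for Prrx1 (SE 0.54, limma adjusted p = 0.00295). The change was -4.01 for Vim, -3.82 for Snai2, -3.69 for Cdh2, -3.47 for Twist2, -3.17 for Twist1, -2.02 for Zeb2 and -1.95 for Snai1 on the same scale. In these iPSCs the mean of 2 libraries was 11.4 ± 1.80 FPKM (SD, n = 2) for Snai1, against 47.2 ± 7.58 in MEFs. With no filter on low values 2 of the 9 passed (Snai2 and Zeb1), where 549 genes were called. Calls here depended on both iPSC libraries. Without iPSC replicate 1, 2 of the 9 passed (Snai2 and Cdh2), and without iPSC replicate 2, 4 did, while the direction stayed lower for all 9. The comparisons share libraries, so their counts are not independent of each other.

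**Figure D2:**
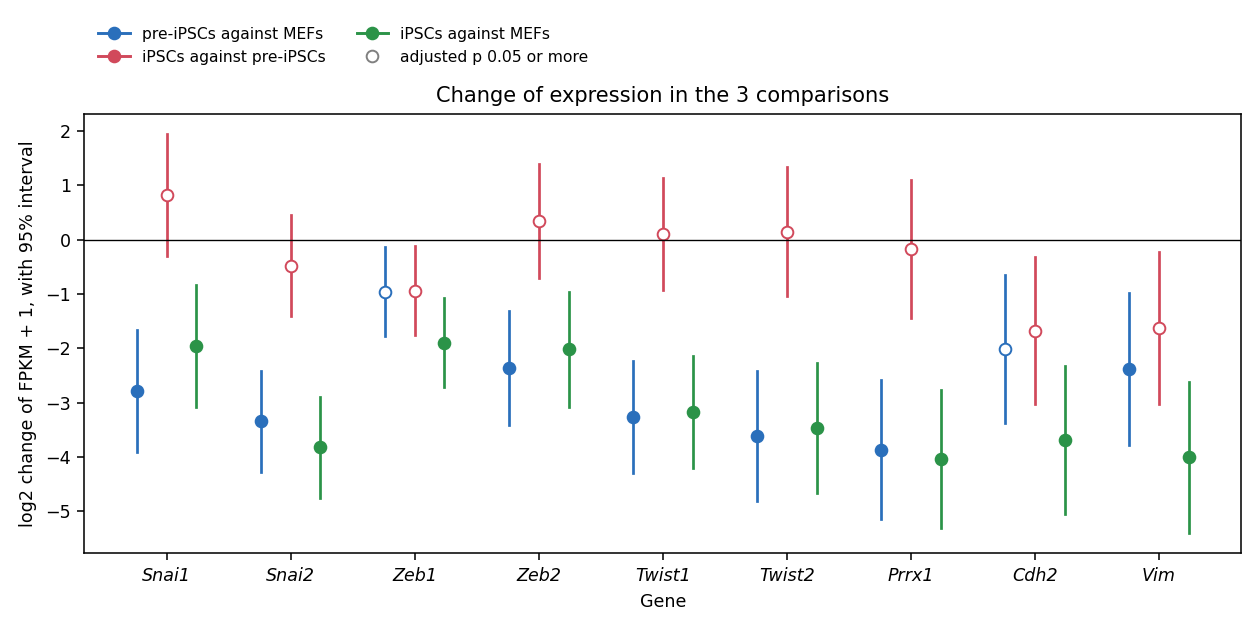
Change of each gene in the 3 comparisons on the log2(FPKM + 1) scale, with 95% intervals and open circles where the gene was not called. All 9 genes lie below 0 in iPSCs against MEFs, and the red circles of the step from pre-iPSCs to iPSCs are all open.

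A list of 22 other mesenchymal products held contractile, matrix and protease genes among others. Of these, 19 fell in pre-iPSCs and all 22 fell in iPSCs against MEFs, with none higher, beside 9.0% and 15.5% of all genes called lower. Col1a1, Col1a2, Col3a1, Thy1, Pdgfrb, Postn and Fap of this list are also among the fibroblast markers above, and Cdh11 is among the cadherins below. The lists are therefore not separate observations. The median changes of the 22 were -3.36 and -3.63. Acta2, the smooth muscle actin, fell by 6.65 on the log2 scale in pre-iPSCs (SE 0.50, limma adjusted p = 0.000887), from 5762 and 9151 FPKM to 82.6 and 61.7 FPKM. Tagln, an actin-binding protein, changed by -5.99 and Col1a2, a collagen, by -5.41. Between pre-iPSCs and iPSCs 1 of the 22 passed, S100a4, which fell by 3.23 (SE 0.56, limma adjusted p = 0.0155) although its MEF libraries were far apart at 763 and 6944 FPKM.

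Epithelial genes, among them Cdh1 as a known target of several of the factors, mostly went the other way. Whether the other genes listed are targets was not tested. Of 24 tested, 16 rose and 2 fell in pre-iPSCs, where 7.39% of all genes were called higher. Cdh1 was at 0.111 FPKM and listed at 0 in MEFs, then 27 and 6.56 in pre-iPSCs and then 71.9 and 54.2 in iPSCs. It rose by 3.79 ± 0.49 in pre-iPSCs (log2, SE, limma adjusted p = 0.00362). Epcam, an adhesion molecule, rose by 3.96, St14, a membrane protease, by 3.70 and Krt8, a keratin, by 3.57. From pre-iPSCs to iPSCs 7 of the 24 rose and 3 fell, where 3.91% of all genes were called higher. Cldn6 (4.22) and Cldn4 (2.58), both claudins of tight junctions, rose, whereas Krt19 (-5.26) and Jup (-2.68), which encodes plakoglobin, fell. Against MEFs, 18 of the 24 were higher and 2 lower in iPSCs, where 10.3% of all genes were called higher. Cdh1 rose by 5.91, Epcam by 5.69 and Cldn4 by 4.72. Cldn6 was listed at 0 in both MEF libraries and was at 15.4 and 26.2 FPKM in iPSCs. The sum of the keratinocyte markers, made up mostly of Sfn, was highest in pre-iPSCs too. Krt5 was at 1.06 and 0.168 FPKM there, while Krt14 was at 13.5 and 6.28 FPKM, against at most 0.112 in MEFs and iPSCs.

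The counts of the smaller lists that follow stand beside 7.39% of all genes called higher and 9.0% lower in pre-iPSCs. From pre-iPSCs to iPSCs these shares were 3.91% and 4.71%, and over the whole course they were 10.3% and 15.5%. Of 5 tested classical cadherins other than Cdh2, 1 rose (Cdh1) and 3 fell in pre-iPSCs. Cdh11, the mesenchymal OB-cadherin, changed by -4.13, Cdh3 (P-cadherin) by -2.95 and Cdh10, a cadherin of the nervous system, by -2.56 on the log2 scale. Cdh3 then rose by 2.42 in iPSCs (SE 0.42, limma adjusted p = 0.0155), as did Cdh1, by 2.12. Against MEFs, Cdh11 (-4.46) and Cdh10 (-2.07) were lower and Cdh1 higher in iPSCs. Of 10 tested intermediate filament genes other than Vim, 2 rose and 1 fell in pre-iPSCs. Krt8 and the neurofilament gene Nefl (3.07) rose, and Krt18, the partner of Krt8 in filaments, fell by 1.56. In iPSCs against pre-iPSCs the lamin gene Lmna fell by 3.21 (SE 0.38, limma adjusted p = 0.00384), while Prph (2.35), a filament gene of peripheral neurons, and Krt18 (2.08) rose. Against MEFs, 2 of the 10 were higher and 2 lower in iPSCs, and Nes, the nestin gene of progenitor cells, fell by 2.18.

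A list of 8 other transcription factors of mesenchyme or of epithelial-mesenchymal transition was also tested. In pre-iPSCs 5 of the 8 fell and 1 rose, and the same counts held in iPSCs against MEFs. Prrx2, the close relative of Prrx1, changed by -4.23 ± 0.67 (log2, SE, limma adjusted p = 0.00683) and the forkhead gene Foxc2 by -3.69 ± 0.35 (0.00145). Sox4, an SRY-box factor, changed by -2.36 and Foxc1 by -1.83. In iPSCs against MEFs the change was -3.92 for Foxc2, -3.88 for Prrx2, -3.28 for Foxc1 and -1.81 for Sox9, a regulator of cartilage. Between pre-iPSCs and iPSCs none of the 8 passed in limma, and 2 had an unadjusted p under 0.05.

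Twist proteins bind DNA together with E proteins, and Id proteins bind the E proteins and keep them off DNA. None of the 7 genes of this group passed in pre-iPSCs (limma, 4 at an unadjusted p under 0.05). In iPSCs against pre-iPSCs 2 fell, Id1 with a change of -3.02 ± 0.46 (log2, SE, limma adjusted p = 0.00939) and Id4 with -1.76 ± 0.41 (0.0401). Id1 was at 65.6 and 170 FPKM in the MEF libraries, 257 and 213 in the pre-iPSC libraries and 24.2 and 32.3 in the iPSC libraries. Against MEFs, Id3 (-2.71), Id1 (-1.88), Id2 (-1.76) and Id4 (-1.64) were all lower in iPSCs, and the 3 E protein genes did not pass. Of 13 corepressor genes tested, none passed in pre-iPSCs or between pre-iPSCs and iPSCs (limma, 2 and 4 at an unadjusted p under 0.05). In iPSCs against MEFs the deacetylase gene Hdac1 (1.16), the demethylase gene Kdm1a (1.15) and Ctbp2 (1.10) rose and Ctbp1 fell by 1.62, the Ctbp proteins being corepressors that Zeb factors recruit.

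Signals of the TGF-beta family switch on these factors in many tissues. Of 11 ligand, receptor and Smad genes tested, 4 fell in pre-iPSCs and none rose. Inhba, the subunit of activin A, changed by -4.96 ± 0.43 (log2, SE, limma adjusted p = 0.00111), Tgfb3 by -3.82, Tgfb2 by -2.53 and Tgfb1 by -2.27. The receptor gene Tgfbr2 was at 21.2 and 19.3 FPKM in MEFs, against 23.5 and 16.4 in pre-iPSCs, with 2.34 and 4.38 in iPSCs, a fall of 2.29 ± 0.41 between pre-iPSCs and iPSCs (limma adjusted p = 0.0165). Against MEFs 6 of the 11 were lower in iPSCs, among them Inhba (-5.61), Tgfb3 (-4.65), Tgfb2 (-4.47) and Tgfb1 (-2.69).

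For each member the 2 other genes with the most similar course over the 6 RNA-seq libraries were found, by the root mean square difference of centred log2(FPKM + 1) among 12400 genes. Twist2 ran closest to Sparc (0.169) and Gng11 (0.187), Prrx1 to Bgn (0.167) and Wls (0.216), and Twist1 to Rbms3 (0.116) and Pea15a (0.137). Snai2 ran closest to S1pr1 (0.0926) and Nsg1 (0.175), Snai1 to Sec24d (0.240) and Galnt10 (0.249), and Zeb2 to Tec (0.135) and Cobll1 (0.147). Zeb1 ran closest to Prkar1a (0.0868) and Plekhb2 (0.0944), Vim to Efemp2 (0.158) and Timp1 (0.244), and Cdh2 to Myof (0.296) and Flrt2 (0.312).

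H3K4me3 within 1000 bp of the TSS was compared next, as reads of called nucleosomes with edgeR's quasi-likelihood test. In pre-iPSCs none of the 9 promoters passed, where 3.82% of 17698 promoters were called, 2 of the 9 had an unadjusted p under 0.05 and DESeq2 called 30 promoters. From pre-iPSCs to iPSCs neither any member nor any other promoter passed (edgeR, 0%). There 1596 promoters had an unadjusted p under 0.05, and DESeq2 called 0. In iPSCs against MEFs only Snai2 passed, with 4.20% of the 17698 promoters called lower. Snai2 had 87 and 62 reads in MEFs, then 42 and 35 in pre-iPSCs and then 32 and 28 in iPSCs, a fall of 1.01 (log2, SE 0.24, edgeR adjusted p = 0.00472). The call was lost with DESeq2 (adjusted p = 0.159), with 500 bp either side of the TSS (change -0.30, adjusted p = 0.673) and without MEF replicate 1 (adjusted p = 0.0917).

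At the other promoters no change passed. Twist2 had 72 and 36 reads in the MEF libraries, 42 and 40 in the pre-iPSC libraries and 42 and 33 in the iPSC libraries, and Prrx1 had 66 and 37, 38 and 49, and 31 and 41. These groups overlapped, while the mean FPKM of both genes was at least 13.0-fold lower in pre-iPSCs and in iPSCs than in MEFs. Snai1 had 34 and 33 reads in MEFs, against 38 and 32 in pre-iPSCs, with 43 and 35 in iPSCs, the only member whose fitted H3K4me3 was higher in iPSCs than in MEFs (0.51, edgeR adjusted p = 0.183). Cdh2 had 53 and 47 reads in MEFs against 20 to 34 in the other libraries, and Zeb2 had 39 and 39 against 15 to 26, with adjusted p of 0.128 and 0.0812 in iPSCs against MEFs. MEF replicate 1 was above replicate 2 at 7 of the 9 promoters. With the libraries scaled to their unique reads alone, the median of all promoters moved by -0.38 in pre-iPSCs and -0.35 in iPSCs, and 2 and 3 of the 9 members passed as lower.

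Reads over the whole transcribed region, from TSS to transcript end, gave another picture of H3K4me3. This region was added after the promoter values were seen. In pre-iPSCs 7 of the 9 genes were lower, with 7.93% of 17963 genes called lower, and in iPSCs against MEFs all 9 were lower, with 15.0% called lower. Between pre-iPSCs and iPSCs none of the 9 passed (edgeR, 2 of them at an unadjusted p under 0.05), with 0.00557% of genes called. In iPSCs against MEFs Vim changed by -1.83 ± 0.19 (log2, SE, edgeR adjusted p = 3.36e-05), with 275 and 221 reads in MEFs against 105 and 94 in pre-iPSCs and only 63 and 84 in iPSCs. Snai2 changed by -1.79 ± 0.27, with 180 and 95 reads in MEFs and 38 to 46 in the other libraries. Twist1 changed by -1.56 ± 0.26, Prrx1 by -1.10 ± 0.16, Snai1 by -0.78 ± 0.21, Twist2 by -0.65 ± 0.15, Cdh2 by -0.64 ± 0.13, Zeb1 by -0.61 ± 0.13 and Zeb2 by -0.57 ± 0.14. More of the mark thus lay inside these genes in MEFs than in iPSCs. The sign for Snai1 was opposite to that at its promoter.

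H3K27me3 had 1 to 14 reads at the 9 promoters in MEFs and rose at some of them. Zeb1, Cdh2 and Vim had too few reads for the filter (edgeR's filterByExpr), so 6 of the 9 were tested among 10410 promoters. In pre-iPSCs Twist1, Twist2 and Prrx1 rose, and in iPSCs against MEFs these 3 and Snai2 did. Of the 10410 promoters tested, 5.16% and 7.38% were called higher. None fell. Within 500 bp of the TSS in place of 1000 bp, 1 member passed in each comparison, Twist2 in pre-iPSCs and Prrx1 in iPSCs. Between pre-iPSCs and iPSCs none of the 6 passed (edgeR), with 1 of the 6 at an unadjusted p under 0.05, 0.817% of promoters called and 0 called by DESeq2. A gene with reads in 1 group alone can pass the filter through that group. Twist1, Twist2, Prrx1 and Snai2 had 1 to 6 reads in MEFs and passed it through their reads in the other cells. Their calls and the shares above hold only after that filter, so the reads of all 9 members follow.

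Twist2 had 4 and 6 reads in MEFs, then 36 and 35 in pre-iPSCs and then 20 and 30 in iPSCs, a rise of 2.85 ± 0.42 in pre-iPSCs (log2, SE, edgeR adjusted p = 3.00e-06). Twist1 had 2 and 3 reads in the MEF libraries, 15 and 17 in the pre-iPSC libraries and 10 and 12 in the iPSC libraries, a rise of 2.67 ± 0.57 (0.00104). Both were fitted lower in iPSCs than in pre-iPSCs, by -0.55 and -0.58, which did not pass. Prrx1 had 2 and 5 reads in MEFs, against 12 and 14 in pre-iPSCs, with 21 and 23 in iPSCs, a rise of 1.91 ± 0.55 in pre-iPSCs (0.0175) and 2.61 ± 0.49 in iPSCs against MEFs (0.000125). Snai2 had 3 and 1 reads in MEFs, then 7 and 10 in pre-iPSCs and then 19 and 17 in iPSCs, a rise of 3.09 ± 0.60 in iPSCs against MEFs (0.000174). In pre-iPSCs its difference was 2.07 ± 0.70 (0.0514), which did not pass. At these 4 promoters no MEF library reached any pre-iPSC or iPSC library, but they were picked by calls on these same reads.

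The remaining promoters were less clear. Zeb2 had 10 and 7 reads in the MEF libraries, 17 and 10 in the pre-iPSC libraries and 18 and 18 in the iPSC libraries, and Snai1 had 7 and 14, 13 and 12, and 13 and 21, so that Zeb2 in iPSCs lay above the other 4 libraries while the remaining groups touched or overlapped. Zeb1 had 4 to 7 reads in every library at the TSS used here, with more in iPSCs at its other starts (described further on). Vim had 2 and 1 reads in MEFs against 3 to 6 elsewhere. Cdh2 had 3 and 7 reads in MEFs, against 9 and 4 in pre-iPSCs, with 14 and 8 in iPSCs. With no filter on low counts these last 3 genes did not pass in any comparison, and their changes in iPSCs against MEFs were -0.16 for Zeb1, 1.64 for Vim and 0.96 for Cdh2 with adjusted p of 0.919, 0.277 and 0.307. Without that filter Prrx1 missed the threshold in pre-iPSCs (adjusted p = 0.0519). DESeq2 kept 1 of the 3 calls in pre-iPSCs (Twist2) and none of the 4 in iPSCs against MEFs, where it called 44 promoters in all.

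**Figure D3:**
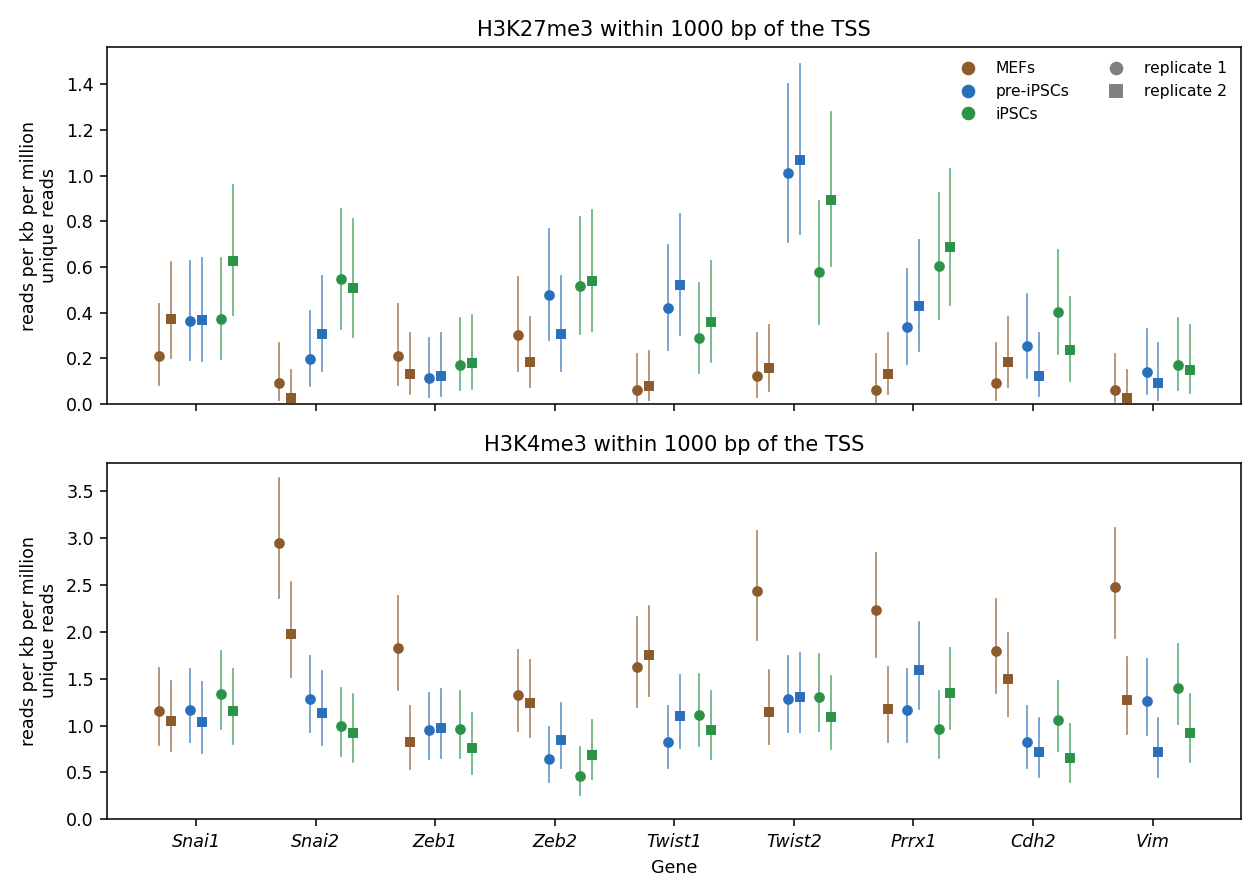
H3K27me3 and H3K4me3 within 1000 bp of each TSS in RPKM (reads per kilobase for every 1000000 unique reads of the library), with circles for replicate 1, squares for replicate 2 and bars for exact 95% Poisson intervals that cover counting error only. For H3K27me3, MEFs lie below all other libraries at Twist1, Twist2, Prrx1 and Snai2. They also do at Vim, where all levels are low (at most 0.0606 against at least 0.0917), and narrowly at Zeb2 (0.303 against 0.306). H3K4me3 in MEF replicate 1 lies above MEF replicate 2 at most promoters.

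Over the 9 promoters together the mean level of H3K27me3 was 0.135 and 0.144 RPKM (reads per kilobase for every 1000000 unique reads of the library) in MEFs, then 0.369 and 0.370 in pre-iPSCs and then 0.407 and 0.464 in iPSCs. The mean over all promoters was 0.285 and 0.306, 0.307 and 0.305, and 0.332 and 0.313. In pre-iPSCs Twist2 alone held 36 of the 118 and 35 of the 109 reads over the 9 promoters. Zeb1 (0.113 and 0.122), Vim (0.141 and 0.0917) and Cdh2 (0.253 and 0.122) each lay below the mean of all promoters there. For H3K4me3 the mean over the 9 was 1.98 and 1.33 in the MEF libraries. It was 1.05 and 1.05 in the pre-iPSC libraries and 1.07 and 0.943 in the iPSC libraries. In each library it lay above the mean of all promoters. That mean was also highest in MEFs, at 1.22 and 0.966, against 0.848 and 0.786 in pre-iPSCs, with 0.880 and 0.798 in iPSCs.

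The profile within 3 kb of the TSS showed where these reads lay. At Twist2 the H3K27me3 of pre-iPSCs and iPSCs covered both sides of the TSS. At Snai2 the 500 bp before the TSS held 0 or 1 read in every library, and the reads lay upstream and downstream of that stretch. H3K4me3 of MEFs continued downstream of the TSS at Twist1, Twist2, Prrx1 and Snai2, where the other cells had less of it.

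**Figure D4:**
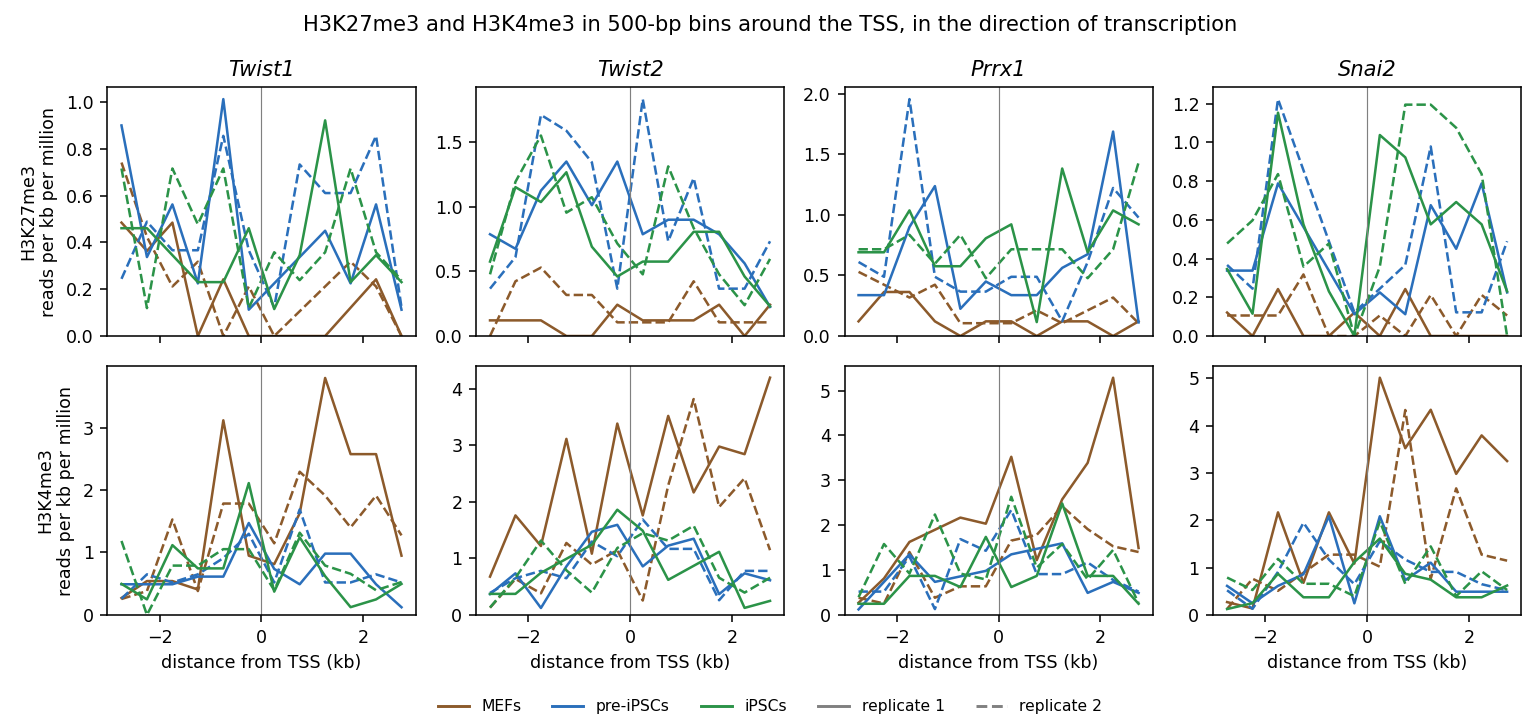
H3K27me3 (upper row) and H3K4me3 (lower row) in 500-bp bins within 3 kb of the TSS of the 4 genes, in RPKM, with 1 line per library. MEFs (brown) are lowest for H3K27me3 over most bins and highest for H3K4me3 in most bins downstream of the TSS.

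Over transcribed regions, the alternative added after the promoter values were seen, H3K27me3 was higher at 6 of the 9 genes in pre-iPSCs (Snai2, Zeb2, Twist1, Twist2, Prrx1 and Vim), with 9.91% of 17662 genes called higher. In iPSCs against MEFs it was higher at 7 (all but Cdh2 and Vim), with 14.2% called higher. Zeb2, which did not pass at the promoter, had 301 and 333 reads in MEFs, against 861 and 937 in pre-iPSCs, with 806 and 876 in iPSCs, a rise of 1.31 ± 0.17 in pre-iPSCs (log2, SE, edgeR adjusted p = 2.06e-05). Prrx1 had 148 and 170 reads in MEFs, then 455 and 481 in pre-iPSCs and then 466 and 464 in iPSCs, a rise of 1.36 ± 0.17 (1.85e-05). For Zeb2 and Prrx1 pre-iPSCs and iPSCs were alike in reads and both about 3 times MEFs.

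Over its transcribed region Snai1 passed between pre-iPSCs and iPSCs, by 1.48 ± 0.33 (log2, SE, edgeR adjusted p = 0.0307), with 0.849% of genes called higher. It had 9 and 16 reads in the MEF libraries, 17 and 17 in the pre-iPSC libraries and 52 and 44 in the iPSC libraries. Runs of 1000-bp windows with at least 6 reads each (islands) were also read around the gene. In both pre-iPSC libraries the H3K27me3 island upstream of Snai1 ended at chr2:167363000, just before the TSS at 167363727, and was 12000 and 11000 bp long. In MEFs replicate 1 had no island and replicate 2 had one of 10000 bp that ended at chr2:167364000, just past the TSS. In both iPSC libraries the island ran on through Snai1 and was 82000 bp long. Snai1 RNA was still present in iPSCs, at 10.2 and 12.7 FPKM. The reads do not say whether RNA and mark come from the same cells.

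Twist2 had the widest H3K27me3 island, 146000 and 200000 bp in pre-iPSCs and 115000 and 125000 bp in iPSCs, and none at its TSS in MEFs. In MEFs the mark was nonetheless present upstream of the gene. From 100 to 10 kb before the TSS it was at 0.686 and 0.762 RPKM in MEFs, against 0.739 and 0.739 in pre-iPSCs, with 0.578 and 0.636 in iPSCs. From the TSS to 60 kb after it, a stretch that holds the 46551 bp of Twist2, it was at 0.210 and 0.293 in MEFs, then 0.786 and 0.731 in pre-iPSCs and then 0.621 and 0.648 in iPSCs. The ratio of the inner to the outer stretch was 0.306 and 0.385 in MEFs and between 0.989 and 1.07 in the other 4 libraries. In MEFs the mark was thus lower over Twist2 than upstream of it. The limits of these stretches were chosen after the profile was seen, so the ratios are a description with no test.

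**Figure D5:**
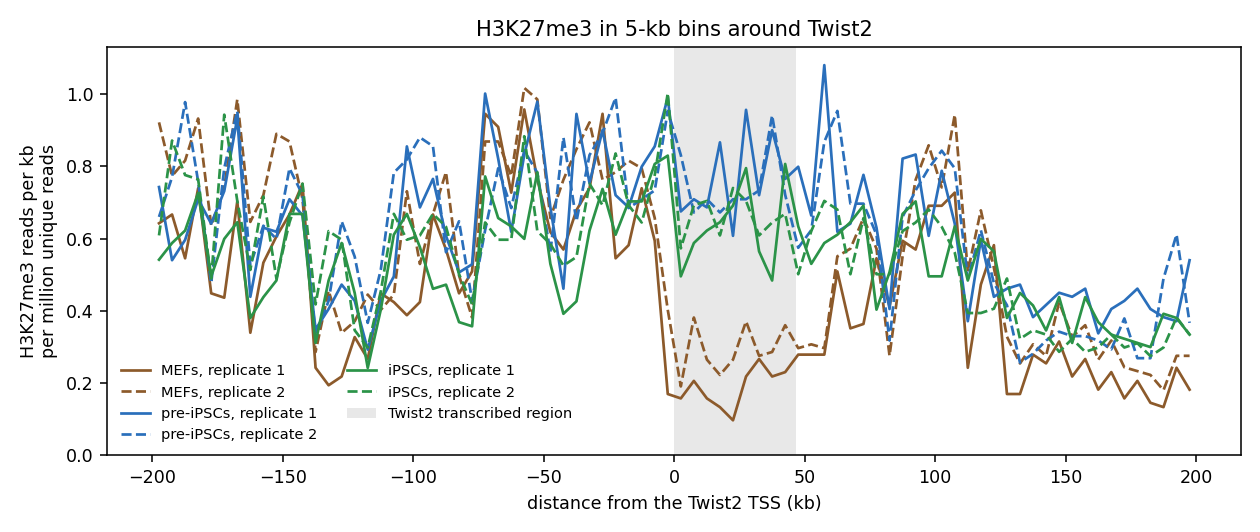
H3K27me3 in 5-kb bins within 200 kb of the Twist2 TSS, in RPKM, with 1 line per library and the transcribed region shaded. MEFs (brown) drop over the gene, to a mean of 0.210 and 0.293 from the TSS to 60 kb after it, whereas the other 4 libraries stay between 0.621 and 0.786.

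H3K9me3 had 1 library per cell type, so no test was made and the intervals are exact 95% Poisson intervals for counting error only. Twist2 had 7 reads in MEFs (0.230 RPKM, interval 0.0923 to 0.473), 21 in pre-iPSCs (0.655, 0.406 to 1.00) and 18 in iPSCs (0.596, 0.353 to 0.942). Snai1 had 4 reads in MEFs (0.131, 0.0358 to 0.336), 6 in pre-iPSCs (0.187, 0.0687 to 0.407) and 16 in iPSCs (0.530, 0.303 to 0.860). Snai2 had 3, 6 and 11 reads. The other 6 promoters had 1 to 9 reads in any library. At each of the 9 promoters, Twist2, Snai1 and Snai2 included, the intervals overlapped between cell types. Over the 9 promoters the mean level was 0.157 (0.113 to 0.211) in MEFs, 0.211 (0.162 to 0.272) in pre-iPSCs and 0.320 (0.256 to 0.395) in iPSCs, beside 0.254, 0.262 and 0.299 over all promoters. The interval of iPSCs overlapped that of pre-iPSCs and not that of MEFs.

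H3 itself, the measure of nucleosome occupancy, did not pass at any of the 9 promoters or at any of the 19560 tested in the 3 comparisons (edgeR, 0%). There were 364, 106 and 299 promoters at an unadjusted p under 0.05 in pre-iPSCs against MEFs, iPSCs against pre-iPSCs and iPSCs against MEFs, and DESeq2 called 0 in each. In the library that stood apart, pre-iPSC replicate 1, Twist2 had 438 reads and Snai1 had 389, against 43 and 28 in pre-iPSC replicate 2 and 26 to 38 in the 4 MEF values. Zeb2 had 43 reads there and 46 in replicate 2. Without pre-iPSC replicate 1 the changes of the 9 in pre-iPSCs against MEFs ran from -1.05 to 0.72 and none passed. Without pre-iPSC replicate 2, which leaves that library alone, 3 passed (Snai1, Zeb2 and Twist2) with 4549 promoters called.

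Promoter states were read within 500 bp of the TSS, where a mark counted as present above 1 RPKM. In MEFs 7 and 8 of the 9 promoters had H3K4me3 alone, beside 55.8% and 47.1% of all promoters. In pre-iPSCs 6 and 2 did, beside 40.2% and 30.5%, and in iPSCs 7 and 4, beside 44.2% and 32.1%. Twist2 was the only member with both marks, in both pre-iPSC libraries, where 0.571% and 0.437% of all promoters had both. No member had H3K27me3 alone. Snai2 and Prrx1 had H3K4me3 alone in all 6 pairs of libraries. The replicates of pre-iPSCs differed at 4 of the 9 promoters, and at a threshold of 2 RPKM in place of 1 all 9 had neither mark in both pre-iPSC replicates and in both iPSC replicates.

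The positions of the genes in mm9 bear on some of these values. On the plus strand lie Snai1 at chr2:167363727-167368311, Snai2 at chr16:14705952-14709475, Zeb1 at chr18:5591858-5775466, Twist1 at chr12:34642536-34644696, Twist2 at chr1:93698054-93744604 and Vim at chr2:13495938-13504453. On the minus strand lie Zeb2 at chr2:44839154-44968799, Prrx1 at chr1:165175250-165243781 and Cdh2 at chr18:16747386-16967558. Zeb1, Zeb2, Prrx1 and Cdh2 are the 4 longest, at 68532 to 220173 bp, and each overlaps a gene on the opposite strand in the GENCODE annotation, by 946 bp in Cdh2 and 6690 bp in Prrx1. Whether the RNA libraries kept strand is not given in the sources used here, so reads of such pairs could not be told apart. Zeb2 has other annotated starts, at -4116 and 2902 bp from the TSS used here. Around the start at 2902 bp, H3K27me3 had 0 and 2 reads in the MEF libraries, 24 and 18 in the pre-iPSC libraries and 5 and 15 in the iPSC libraries, whereas the window of the RefSeq TSS had 10 and 7, 17 and 10, and 18 and 18. Snai1, Snai2, Twist1, Twist2 and Vim overlap no other annotated gene.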

How the data were processed

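The 9 genes and the gene lists were chosen with earlier results of these data known. Replicate numbers were not used to pair ChIP-seq libraries in the tests. Promoter states join the H3K4me3 and H3K27me3 libraries of the same cell type and number. The study calls its replicates biological, but the culture or clone of each library is not given in the sources used here, so p-values measure only the spread between these libraries.

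For RNA-seq the authors deposited FPKM, made with TopHat2 2.0.4 and Cufflinks 2.0.2 (versions from the submitters' processing notes). For ChIP-seq the authors digested chromatin with micrococcal nuclease, under other conditions in MEFs than in the other cells. Reads were mapped to mm9 by Bowtie, and those with a single place were shifted by 73 bp and grouped into nucleosome calls by GeneTrack. For each call the authors deposited its read count and its fuzziness, a spread of read positions in bp that was not used here. Strand settings of the RNA libraries are not given in the sources used here.

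The FPKM, as log2(FPKM + 1), entered limma 3.58.1 with a trend, with the table of replicate 1 or 2 as a term and a filter at a mean of 0.5 FPKM. Read counts of calls centred within 1000 bp of each TSS entered the quasi-likelihood test of edgeR 4.0.16 after filterByExpr and TMM scaling, called at an adjusted p under 0.05, with DESeq2 1.42.0 as an alternative. P-values were adjusted over all features by Benjamini-Hochberg. Levels were scaled to the unique reads listed by the study for each library. Where a fit lacks 1 library, the remaining one of that cell type is assumed to vary like the other groups. The tests were tried on simulated data. Islands join 1000-bp windows of at least 6 reads and hold at least 60 reads. Overlapping genes and sequences come from annotation of NCBIM37.

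Every member is named. From each list up to 4 called genes with the largest change in a comparison and the same sign in both replicates are named, as are the 2 genes most like each member. One item that this rule picks is not reported here.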

Additional observations from a re-analysis of the deposited data

How the results depend on the processing

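Of the alternative values of single members, 276 of 324 in expression, 198 of 234 in H3K4me3 and 197 of 221 in H3K27me3 kept their direction and side of the threshold, and 8, 17 and 3 changed sign. With no filter on low FPKM, 0, 170 and 549 genes were called in pre-iPSCs against MEFs, iPSCs against pre-iPSCs and iPSCs against MEFs in place of 2032, 1069 and 3206, and 0, 0 and 2 members. Without limma's trend 1 member (Vim) passed between pre-iPSCs and iPSCs. Quantile normalization turned Prrx1 there to 0.025. For H3K4me3, scaling to library size alone called 2 and 3 members in pre-iPSCs and iPSCs against MEFs and turned Prrx1 to -0.30 in pre-iPSCs. DESeq2 called 0 members and 500 bp either side 0 in iPSCs against MEFs. With 500 bp Twist1 turned to 0.23 in pre-iPSCs and, against MEFs, Twist1 to 0.094 and Twist2 to 0.065 in iPSCs. The transcribed region, added after seeing the data, called 7 and 9 members for H3K4me3, with Snai1 at -0.66 and -0.78 and Prrx1 at -0.89 in pre-iPSCs. For H3K27me3 it called 6, 1 and 7 members in the 3 comparisons, with Zeb2 at -0.10 and Prrx1 at -0.019 between pre-iPSCs and iPSCs. DESeq2 called 1 and 0 members and 500 bp 1 and 1 for H3K27me3 in pre-iPSCs and iPSCs against MEFs. Promoters called for H3K4me3 were 676, 0 and 2436, against 30, 0 and 147 with DESeq2, and 864, 85 and 1171 for H3K27me3, against 51, 0 and 44. With 500 bp they were 295 and 927 for H3K4me3 against MEFs and 123, 4 and 184 for H3K27me3. With calls of at least 2 reads 35 and 670 promoters were called for H3K27me3 in iPSCs against pre-iPSCs and MEFs, and the mean H3K9me3 of the 9 promoters was 0.0948, 0.146 and 0.221. Scaled to reads in calls it was 0.395 in iPSCs. At a threshold of 2 for promoter states, the members sharing a state between both replicates numbered 0 for H3K4me3 alone in each cell type, 0 for both marks in pre-iPSCs, and 4, 9 and 9 for neither mark. With 1000 bp either side, H3K4me3 alone held for 2 members in iPSCs. The causes were not tested.

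With 1 library left out at a time, 0 to 2 members passed by expression between pre-iPSCs and iPSCs and 2 to 9 in iPSCs against MEFs, 0 to 1 by H3K4me3 in iPSCs against MEFs and 0 to 3 by H3 in pre-iPSCs against MEFs. Between pre-iPSCs and iPSCs the log2 change of expression ran from -1.14 to 0.80 for Prrx1, -0.48 to 0.68 for Twist1, -0.74 to 1.04 for Twist2 and -0.30 to 0.99 for Zeb2, and that of H3K27me3 from -0.018 to 0.72 for Snai1. For H3K4me3 it ran in pre-iPSCs against MEFs from -0.21 to 0.44 for Prrx1, -0.38 to 0.39 for Twist2 and -0.39 to 0.43 for Zeb1. In iPSCs against MEFs it ran from -0.52 to 0.14 for Prrx1, -0.53 to 0.23 for Twist2, -0.60 to 0.039 for Vim and -0.59 to 0.23 for Zeb1.

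Same-numbered libraries did not deviate together in every pair (correlations of -0.205 to 0.346 for expression, -0.0432 to 0.115 for H3K4me3 and -0.0475 to 0.0576 for H3K27me3). For H3 they ran from -0.0316 to 0.795, the highest between pre-iPSCs and iPSCs, whose replicates 1 stood apart. The numbers were therefore not taken as pairs in the tests of ChIP-seq libraries. The fit of expression kept the replicate number as a term because each replicate has a table of its own. Without the replicate block 1997, 1124 and 3004 genes were called by expression, and with a replicate block 699, 0 and 2502 promoters by H3K4me3 and 794, 68 and 1082 by H3K27me3. No count of called members changed with the block. The RNA depth is unknown, and at 1 to 10 reads a promoter a difference in H3K27me3 or H3K9me3 was not detectable unless large.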
